A study of Mus musculus with 12 samples.

Results

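Granulocyte-monocyte progenitors (GMP) were compared with megakaryocyte-erythrocyte progenitors (MEP) from adult mouse bone marrow, over every probe set of a genome-wide microarray. The samples were chosen by their titles alone: 3 GMP and 3 MEP arrays, 6 of the 12 arrays in the series. All came from female C57BL/6 mice of 4 to 6 weeks, with no allele, agent or treatment named in the labels. Both populations were sorted as lineage-negative, CD117+ and Sca-1- cells. GMP were then sorted as CD34+ CD16/32+ CD27+, and MEP as CD34- CD16/32- CD27-. RNA from 80000 cells of each population was hybridised as biotin-labelled cRNA to an Affymetrix mouse genome array. The other 6 arrays hold common myeloid progenitors (CMP), CD34+ and CD16/32-, 3 from a CD27+ sort and 3 from a CD27- sort. Arrays of 1 population are named as biological replicates, with no word on separate mice or pools behind them, and the p-values here cover the spread between these arrays alone.

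GMP give rise to neutrophils, monocytes and related granulocytes, and MEP give rise to red cells and platelets. In mouse, the myeloid branch is known for the transcription factors PU.1 and C/EBPα, and the erythroid branch for GATA1, FOG1 and KLF1. The lineage decision is often described as an opposition between these factors. The sorts read surface proteins, whereas the arrays read RNA of bulk samples, in which fewer cells of a type and less RNA per cell cannot be told apart.

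The deposited signals are log2 values from which the median over the 12 arrays had been taken for each probe set. A value of 3.00 therefore lies 3 log2 units above that probe set's median array, and values of different genes say nothing of which gene is the more abundant. A probe set that stays near 0 on all arrays may be absent everywhere or equally present everywhere. Within a population, pairs of arrays differed by an SD of 0.369 to 0.627 log2 (15263 probe sets whose range reached 1 log2), and pairs across the populations by 1.66 to 1.85. The first principal component of the 6 arrays held 88.2% of the variance and separated GMP from MEP. The second held 6.79% and set replicate 3 of both populations apart from replicates 1 and 2.

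Of 18193 genes, each represented by its most variable probe set, 1969 were higher in GMP (10.8%) and 1859 were lower in GMP (10.2%), or 21% in either direction, by limma at a Benjamini-Hochberg adjusted p under 0.05. These are the shares to set beside every list count below. With the replicate number as a block the counts became 2466 higher and 2941 lower, and without MEP replicate 2 the lower count became 1213. Over all 45037 probe sets 3166 were higher (7.03%) and 2933 lower (6.51%), or 13.5% in either direction. The lower probe sets numbered 4787 with the block and 1883 without MEP replicate 2. The GMP side held the larger differences: 564 genes were higher and 259 lower by at least 3 log2, an 8-fold difference, and 69 were higher and 28 lower by at least 7 log2. The median of all gene differences was -0.04 log2, and the median size among called genes was 1.47. All 3 GMP arrays lay above all 3 MEP arrays for 2675 genes (14.7%) and below them for 4672 (25.7%). Array medians ran from -0.023 to 0.021 in GMP and from 0.001 to 0.055 in MEP, and 7471 genes had a range under 0.5 log2. The part of this offset in the counts without overlap was not tested. With arrays centred on their median 1903 genes were called higher and 1619 lower, and with quantile normalization 2020 and 1488. GCRMA, the method behind the signals, draws weak signals toward background, so a fold with 1 population near background is uncertain in size.

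**Figure D1:**
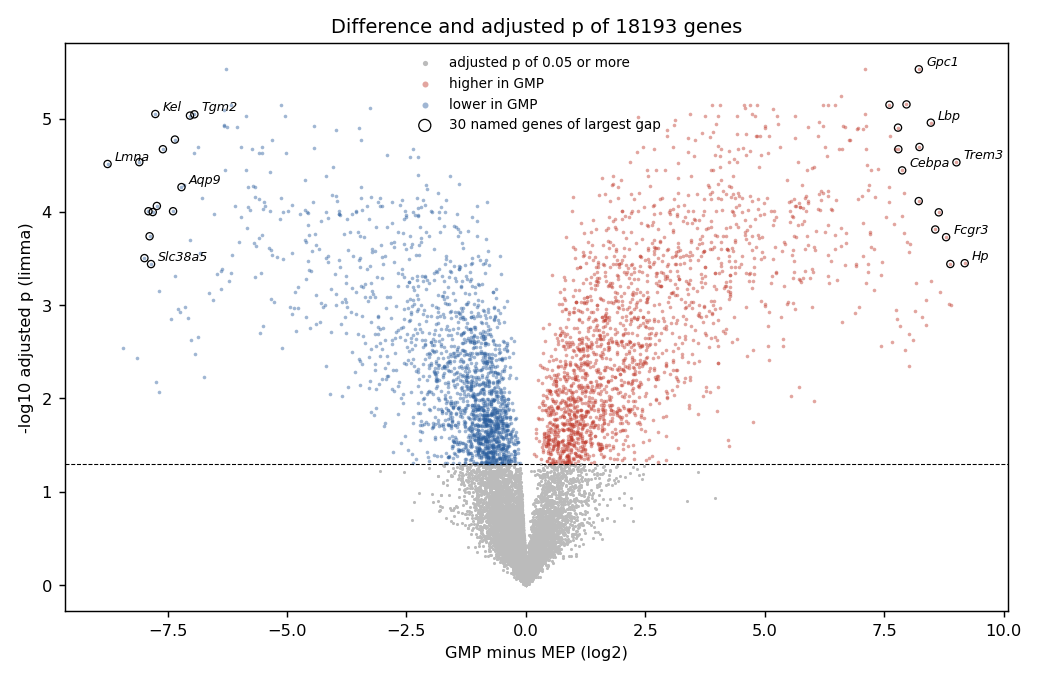
GMP minus MEP difference (log2, x axis) against -log10 of the limma adjusted p (y axis) for 18193 genes, with the 30 named genes of largest gap between the groups circled. The 1969 genes higher in GMP and 1859 lower in GMP lie above the dashed line at an adjusted p of 0.05, and the points farthest right reach 9.18 log2.

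The genes chosen to mark each population separated the arrays. Fcgr3, which encodes the low-affinity IgG receptor CD16, read 7.35, 6.80 and 7.31 in GMP, against -1.04, -1.36 and -2.51 in MEP. The means were 7.16 ± 0.31 in GMP and -1.64 ± 0.77 in MEP (SD, n = 3 each), a difference of 8.79 log2 (SE 0.43, limma adjusted p = 0.00019). Below, a signed value in parentheses after array values is the GMP minus MEP difference in log2, followed where given by its SE and limma adjusted p. Hp, which encodes the haemoglobin-binding protein haptoglobin, read 5.63, 5.52 and 5.81 in GMP, against -2.69, -3.20 and -4.71 in MEP (9.18, SE 0.55, adjusted p = 0.00036). Tyrobp, the gene of the ITAM adaptor DAP12, read 3.38, 2.75 and 3.51 in GMP, against -4.09, -6.12 and -6.13 in MEP (8.67, SE 0.64, adjusted p = 0.00073). In all of them the lowest GMP array stood more than 6 log2 above the highest MEP array. Klf1, the erythroid Kruppel-like factor gene, read -7.0, -4.57 and -2.63 in GMP, against 2.63, 2.84 and 3.40 in MEP (-7.69, SE 1.14, adjusted p = 0.0086). Rhd, the gene of the Rh blood group antigen, read -6.61, -4.48 and -2.94 in GMP, against 3.49, 3.28 and 3.59 in MEP (-8.13, SE 0.95, adjusted p = 0.0037). The GMP values of Klf1 and Rhd were far more spread than the MEP values, with SDs of 2.19 and 1.84 in GMP against 0.40 and 0.16 in MEP, and no GMP array came near an MEP array.

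Of 5 measured genes of the sorted surface markers, 4 were higher in GMP, the population gated positive for their proteins. Cd34 read 3.09, 2.85 and 3.13 in GMP, against -3.17, -4.97 and -6.59 in MEP (7.94, SE 0.88, adjusted p = 0.0031), and Cd27, a co-stimulatory receptor gene of the TNF receptor family, read 2.36, 2.54 and 3.13 in GMP, against -2.94, -3.14 and -3.07 in MEP (5.73, SE 0.22, adjusted p = 8.8e-05). Fcgr2b, the gene of CD32, differed by 8.57 (SE 0.39, adjusted p = 0.00015), with its 4 other probe sets between -0.03 and 7.82. Kit encodes CD117, which both gates carry. It read 0.03, -0.03 and 0.51 in GMP, against 0.43, 0.62 and 0.01 in MEP, and its difference of -0.19 did not pass (adjusted p = 0.55).

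**Figure D2:**
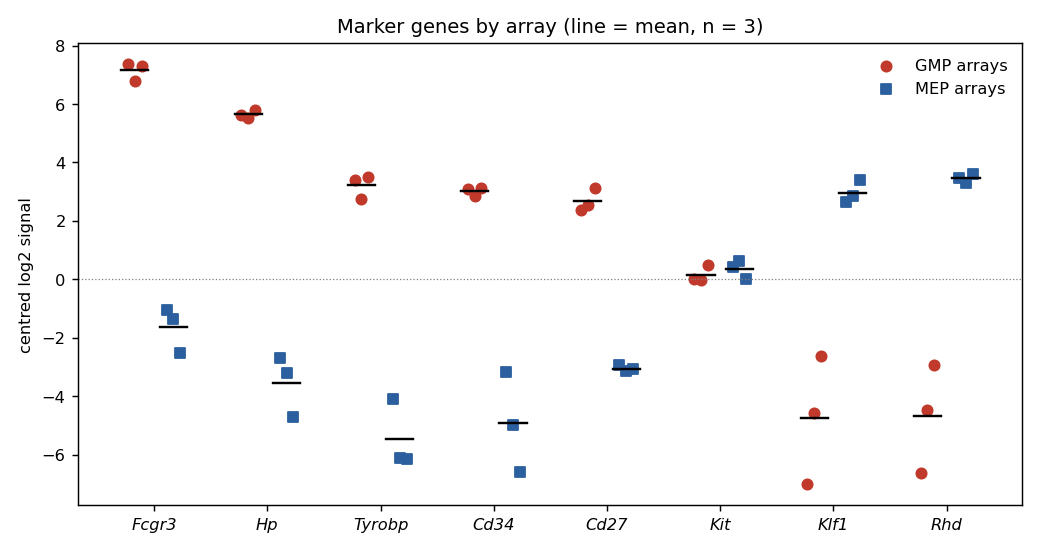
Centred log2 signal (y axis) of 8 marker genes on each GMP array (red circles) and each MEP array (blue squares), with the mean of 3 arrays as a line. Fcgr3, Hp, Tyrobp, Cd34 and Cd27 stand higher in GMP, Klf1 and Rhd lower in GMP, and Kit overlaps.

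Genes were ranked by the lowest GMP array minus the highest MEP array, leaving out gene models and clones without a gene name. The 15 with the widest gap above MEP were Trem3, Lbp, Hp, Gpc1, Fcgr3, App, Mcpt8, Hdc, Fcgr2b, Emb, Rab31, S1pr3, Myo1f, Hk3 and Cebpa. Trem3, an activating receptor of mouse myeloid cells, had the widest gap of these, 8.42 log2, and read 6.03, 6.15 and 5.95 in GMP, against -3.15, -2.47 and -3.29 in MEP (9.01, SE 0.23, adjusted p = 2.9e-05). Lbp encodes the lipopolysaccharide-binding protein that hands endotoxin to CD14. It read 4.78, 4.76 and 5.24 in GMP, against -3.57, -3.53 and -3.55 in MEP, and Gpc1, the gene of the heparan sulphate proteoglycan glypican 1, read 5.18, 5.13 and 5.29 in GMP, against -2.98, -3.02 and -3.08 in MEP. These 3 MEP values of Gpc1 span 0.1 log2, which gave a difference of 8.22 with an SE of 0.05. App, the amyloid precursor protein gene, differed by 7.97, Rab31, of an endosomal GTPase, by 7.61, and S1pr3, a receptor for sphingosine 1-phosphate, by 7.79. Another probe set of App read -0.04 and another of S1pr3 read -0.02, so those sizes hold for the probe sets that varied. The second probe sets of Lbp and Rab31 read 1.406 and 1.396, so the sizes of their differences depend on the probe set too.

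Transcription factors of the myeloid branch were higher in GMP for 10 of 12 measured genes and lower for none, with a median difference of 4.76, where 10.8% of all genes were higher. Irf8, which directs cells to the monocyte and dendritic lineages, read 3.66, 3.06 and 3.74 in GMP, against -3.27, -5.22 and -5.89 in MEP (8.28, SE 0.73, adjusted p = 0.0013). Gfi1, a repressor needed for neutrophils, read 4.98, 5.14 and 4.50 in GMP, against -2.48, -2.92 and -3.75 in MEP (7.92, SE 0.38, adjusted p = 0.00017). Cebpa, the gene of the C/EBPα factor without which GMP do not form in mouse, read 3.07, 2.89 and 3.44 in GMP, against -5.06, -4.44 and -4.73 in MEP (7.88, SE 0.22, adjusted p = 3.6e-05). Spi1, the PU.1 gene, differed less and read 2.23, 1.93 and 2.71 in GMP, against -4.69, -3.11 and -3.28 in MEP (5.99, SE 0.49, adjusted p = 0.0011). Tfec, of the MITF family, differed by 7.88, and Klf4, a monocyte factor, by 3.76. Klf4 read 4.43, 3.82 and 2.40 in GMP, lowest in replicate 3, against -0.19, -0.21 and -0.24 in MEP. The members that did not pass were Id2 at 1.51 (adjusted p = 0.17, with GMP replicate 3 at -0.08) and Hhex at 0.21. Id2 passed without that array (adjusted p = 0.00817).

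Receptors for the growth factors of these lineages followed. Of 16 myeloid cytokine receptor genes 12 were higher in GMP, with a median of 2.92. Csf1r, the macrophage colony-stimulating factor receptor, read 3.12, 2.65 and 3.50 in GMP, against -4.14, -5.61 and -5.04 in MEP (8.02, SE 0.44, adjusted p = 0.00027). Csf2rb, the shared beta chain for GM-CSF, IL-3 and IL-5, read 3.68, 3.74 and 3.33 in GMP, against -3.83, -4.10 and -5.24 in MEP (7.98, SE 0.40, adjusted p = 0.00021). Csf3r, the granulocyte colony-stimulating factor receptor, differed by 5.71 and the IL-6 receptor gene Il6ra by 5.74, with a second Il6ra probe set at 0.99. Il17ra, of the IL-17 receptor, was the exception at -1.22 (SE 0.28, adjusted p = 0.039). It read -1.39, -1.26 and -0.52 in GMP, against -0.04, 0.04 and 0.50 in MEP, and its call was lost when any single array other than GMP replicate 3 was left out and when arrays were centred on their median or quantile normalized.

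Fc receptors and the ITAM signalling chain behind them, which turn antibody binding into phagocyte activation, were higher in GMP for 15 of 19 genes, with a median of 4.01 and none lower. The receptor chain Fcer1g read 2.77, 1.91 and 2.96 in GMP, against -3.85, -3.77 and -4.75 in MEP, the inhibitory receptor Sirpa 3.72, 3.66 and 3.75 in GMP, against -3.50, -3.13 and -3.04 in MEP, and the kinase gene Syk 0.11, 1.08 and 1.14 in GMP, against -1.99, -1.96 and -0.97 in MEP. Their differences were 6.67, 6.93 and 2.41. The chain's other kinase gene Btk differed by 0.36 (SE 0.06, adjusted p = 0.011), small beside its neighbours and still without overlap between the arrays. Fcgr1, the high-affinity IgG receptor of mature macrophages, stayed at -0.04, and Fgr, Pirb and Inpp5d did not pass either.

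Primary granules are the first granules that neutrophil precursors build, at the promyelocyte stage, and hold serine proteases and myeloperoxidase. All 11 measured genes of this group were higher in GMP, with a median of 6.51. Elane, the neutrophil elastase gene, read 5.04, 4.48 and 5.46 in GMP, against -1.75, -2.23 and -2.90 in MEP (7.29, SE 0.39, adjusted p = 0.00025). Mpo, of myeloperoxidase, read 2.46, 1.94 and 2.60 in GMP, against -2.17, -3.04 and -3.85 in MEP (5.35, SE 0.47, adjusted p = 0.0013). Prtn3, the proteinase 3 gene next to Elane on chromosome 10, read 3.15, 2.97 and 3.28 in GMP, against -2.73, -3.08 and -4.33 in MEP (6.51), and Ctsg, the cathepsin G gene, read 3.27, 3.24 and 3.49 in GMP, against -2.49, -3.42 and -4.75 in MEP (6.89). Ms4a3, a membrane protein gene of early granulocytes, differed by 7.75 and Serpinb1a, an inhibitor of elastase, by 7.29. Ctsc, whose product activates the proteases, read 1.51, 1.50 and 1.32 in GMP, against -1.22, -1.22 and -1.26 in MEP (2.68, SE 0.06, adjusted p = 2.1e-05), and Srgn, the serglycin core to which they are bound, had the smallest difference of the group at 1.48. Cst7, of the protease inhibitor cystatin F, differed by 6.17. MEP replicate 1 stood highest of the MEP arrays for 10 of the 11 genes. It did so for 829 of all 1969 genes higher in GMP, and for 302 of the 564 higher by at least 3 log2. Lyz1 and Lyz2 are near-identical neighbours that may share probe signal, so their differences of 5.76 and 6.61 are uncertain as separate values.

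The promoters of these genes are shown because letters of the core ETS motif, the family to which PU.1 belongs, recur in them. RefSeq gives a promoter for 10 of the 11 genes in build GRCm38.p6, and AGGAAGT occurs on either strand within the 250 bases before the start in 8 of them (80%), against 7.59% of the promoters of all measured genes and 7.8% of all promoters in the table. It was found in 12.8% of the 439 promoters of genes higher in GMP by at least 3 log2 and in 5.83% of the 206 lower by at least 3 log2. TTGCNNAA and CCNCACCC (N is any base), also searched, were each found in 1 of the 10 primary granule promoters (10%). Their shares in the promoters of all measured genes were 8.07% and 18%. CCNCACCC was found in 22.3% of the 439 promoters and in 25.7% of the 206. Each motif was searched by itself without regard to overlap with another, and a match is a description of letters, not a binding site. Each stretch is written along the gene's strand, with the motif in capitals (ACTTCCT is the same motif on the opposite strand). Coordinates are chr11:87793544-87793584 for Mpo, chr10:79886211-79886251 for Elane, chr10:79879556-79879596 for Prtn3, chr14:56102757-56102797 (minus strand) for Ctsg, chr7:88277917-88277957 for Ctsc, chr2:150570335-150570375 for Cst7, chr10:117292945-117292985 (minus strand) for Lyz1 and chr10:117282349-117282389 (minus strand) for Lyz2.
Mpo: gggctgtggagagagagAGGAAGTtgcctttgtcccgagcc
Elane: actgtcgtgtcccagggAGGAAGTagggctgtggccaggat
Prtn3: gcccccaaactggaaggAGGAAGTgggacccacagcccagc
Ctsg: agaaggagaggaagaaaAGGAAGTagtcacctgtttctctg
Ctsc: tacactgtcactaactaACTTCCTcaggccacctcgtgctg
Cst7: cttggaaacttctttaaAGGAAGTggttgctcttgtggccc
Lyz1: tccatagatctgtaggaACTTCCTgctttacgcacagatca
Lyz2: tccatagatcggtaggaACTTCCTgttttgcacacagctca
The motif begins 84 bases before the start in Elane, 94 in Prtn3 and 63 in Cst7, and 223 in Mpo. The Lyz1 and Lyz2 stretches differ in few letters and are not independent examples.

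Genes of later neutrophil granules and of mature neutrophils were higher in GMP for 4 of 15 (26.7%, against 10.8% of all genes) and lower for none, with a median of -0.02. The 4 were Hp, S100a8, Lcn2 and Cxcr2. S100a8, a subunit of the calcium-binding protein calprotectin, read 5.08, 5.23 and 2.49 in GMP, against -1.35, -0.66 and -1.81 in MEP (5.54, SE 0.85, adjusted p = 0.0094), with GMP replicate 3 clearly below the others. Lcn2, of the iron-scavenging lipocalin, read 2.33, 3.72 and 3.94 in GMP, against 0.04, 0.00 and -0.02 in MEP (3.32), and the chemokine receptor gene Cxcr2 0.75, 1.25 and 1.79 in GMP, against -0.07, -0.18 and -0.21 in MEP (1.41, SE 0.27, adjusted p = 0.02). S100a9, the partner of S100a8, read 1.21, 3.02 and -0.10 in GMP, against 0.03, -0.01 and -0.08 in MEP and did not pass (adjusted p = 0.31). Ltf, Ngp, Camp and Chil3, which fill specific granules, lay between -0.13 and -0.02, and 8 of the 15 genes had a range under 0.5 log2 over all 12 arrays. The Cxcr2 call was lost without GMP replicate 2 or any MEP array.

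The enzyme that makes superoxide in phagocytes was higher in GMP in 4 of 5 measured subunits. The cytosolic subunit Ncf1 read 3.85, 3.77 and 3.45 in GMP, against -3.35, -4.58 and -5.51 in MEP (8.17, SE 0.57, adjusted p = 0.00058), Ncf4 differed by 7.91, the membrane subunit Cybb by 6.49 and the GTPase Rac2 by 2.67. Cyba, the membrane partner of Cybb, read 0.47, 0.01 and 0.97 in GMP, against -0.90, -0.67 and 0.02 in MEP, a difference of 1.0 that did not pass (adjusted p = 0.13, and 0.024 with the replicate block).

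Monocyte genes were higher in GMP for 11 of 15 and lower for 1, with a median of 6.70. Emb, of the transporter chaperone embigin, read 4.27, 3.75 and 3.99 in GMP, against -3.75, -5.21 and -5.68 in MEP (8.88, SE 0.53, adjusted p = 0.00036), Ly86, the MD-1 partner of the receptor RP105, read 3.98, 3.14 and 3.51 in GMP, against -3.14, -5.22 and -5.44 in MEP (8.14), and Ccl9, a chemokine gene, read 3.77, 3.44 and 3.96 in GMP, against -3.44, -4.78 and -4.74 in MEP (8.05). The other Emb probe sets ran from 0.58 to 8.89. Ccr2, which draws monocytes from marrow, differed by 6.70, and Cx3cr1 by 2.51. Ifi30, a lysosomal thiol reductase gene, was the lower member, at -1.24, -0.89 and -0.87 in GMP, against 0.65, 0.67 and 0.81 in MEP (-1.71, SE 0.12, adjusted p = 0.00055). Lgals3 read 0.76, 2.09 and -0.08 in GMP, against -0.05, -0.07 and -0.06 in MEP, and did not pass.

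Pattern recognition genes were split between a called set and a flat set. Of 17, 7 were higher in GMP and none lower, with a median of 0.57. Casp1, the inflammasome protease gene, read 2.42, 2.57 and 2.24 in GMP, against -2.73, -2.99 and -3.02 in MEP (5.32, SE 0.12, adjusted p = 2e-05), and Tlr2, a receptor for bacterial lipopeptides, read 1.96, 2.13 and 2.05 in GMP, against -2.58, -2.09 and -2.51 in MEP (4.44). The endotoxin receptor genes Cd14 and Tlr4 read 3.24, 3.86 and 3.64 and 3.53, 3.27 and 3.30 in GMP, with every MEP array within 0.1 of 0. Their differences were 3.58 (SE 0.16, adjusted p = 0.00015) and 3.38 (SE 0.08, adjusted p = 2.3e-05). Tlr5, Tlr7, Tlr9 and Myd88 differed by less than 0.1 log2, and Tlr6 read 0.00, 0.41 and 1.01 in GMP, against -0.30, 0.02 and 0.00 in MEP (adjusted p = 0.25).

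Leukocyte adhesion genes gave 6 of 13 higher in GMP and none lower. Icam1 differed by 4.44 (SE 0.20, adjusted p = 0.00015), Pecam1, of the platelet and endothelial adhesion molecule CD31, by 4.41, and the integrin alpha L gene Itgal by 4.32. A second Itgal probe set read 0.95. The integrin genes Itga5 (-1.43, adjusted p = 0.055) and Itga4 (-1.0, adjusted p = 0.12) read lower in GMP without passing. With the replicate block the count lower in GMP became 2, as it did without MEP replicate 3, and without MEP replicate 1 it was 1. Of 9 genes for leukotrienes and prostaglandins, 3 were higher: Alox5ap, the 5-lipoxygenase-activating protein gene, at 6.19 (SE 0.20, adjusted p = 6e-05), Lta4h at 2.70 and Tbxas1, of thromboxane synthase, at 2.18. Alox5 itself stayed at 0.06, and Pla2g4a at 0.68 did not pass (adjusted p = 0.1) but did with the block (0.0355) and without GMP replicate 3.

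Genes of basophils, mast cells and eosinophils were higher in GMP for 7 of 18, none was lower, and the median was 0.68. Hdc, whose enzyme makes histamine, read 5.79, 5.58 and 5.89 in GMP, against -2.15, -3.13 and -3.39 in MEP (8.64, SE 0.35, adjusted p = 0.0001). Mcpt8, the basophil protease gene, read 4.27, 4.10 and 4.60 in GMP, against -3.63, -4.07 and -4.03 in MEP (8.24, SE 0.18, adjusted p = 2e-05), and Cpa3, the mast cell carboxypeptidase gene, read 2.97, 2.55 and 3.41 in GMP, against -4.09, -4.44 and -4.47 in MEP (7.31). The eosinophil granule genes varied within GMP: Prg2, of major basic protein, read 7.12, 7.31 and 4.02 in GMP, against 0.00, 0.32 and 0.02 in MEP (6.04, SE 0.96, adjusted p = 0.011). Epx, of eosinophil peroxidase, read 3.07, 3.62 and 0.04 in GMP, against 0.03, 0.01 and -0.02 in MEP and did not pass (adjusted p = 0.21). GMP replicate 3 was the low array for Prg2 and Epx. The mast cell proteases Tpsab1, Tpsb2, Cma1 and Mcpt4 had ranges under 0.5 log2 over the 12 arrays.

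Of 8 genes of antigen presentation on MHC class II, 2 were higher in GMP and 1 lower (37.5%, against 21% of all genes), with a median of -0.02. H2-DMa, which loads peptides, differed by 1.87 (SE 0.38, adjusted p = 0.024), H2-Ob, of the class II chaperone DO, by 1.43 (SE 0.35, adjusted p = 0.047), and H2-Ab1, a class II chain, by -0.83 (SE 0.21, adjusted p = 0.048). No member was called higher without GMP replicate 1, MEP replicate 1 or MEP replicate 2, and 1 was without GMP replicate 2 or 3. The H2-Ab1 call was lost without replicate 1 or 2 of GMP and without replicate 2 or 3 of MEP. Annexins, calcium-dependent membrane-binding proteins, were higher in GMP for 4 of 7, with Anxa3 at 4.62, 4.42 and 4.61 in GMP, against -2.78, -4.81 and -5.45 in MEP (8.90, SE 0.72, adjusted p = 0.001) and Anxa1, an inflammation-resolving member, at 4.37, 4.15 and 3.78 in GMP, against -2.0, -2.50 and -3.0 in MEP (6.60). Anxa7 was lower at -0.14, -0.29 and -0.13 in GMP, against 0.68, 0.82 and 1.13 in MEP (-1.06, SE 0.13, adjusted p = 0.0045), and its 2 other probe sets read -0.73 and -0.68. Anxa6 (1.69, adjusted p = 0.19) and Anxa4 (0.82, adjusted p = 0.054, and 0.0166 with the replicate block) did not pass. Anxa4 also passed without MEP replicate 3.

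On the MEP side, again leaving out gene models and clones without a gene name, the 15 genes with the widest gap were Lmna, Tspan8, Kel, Myh10, Col5a1, Atp1b2, Aldh1a1, Aldh1a7, Tspo2, Asb17, Slc38a5, Prss50, Paqr9, Tgm2 and Aqp9. Lmna, which encodes the A-type lamins of the nuclear envelope, read -4.87, -4.82 and -4.08 in GMP, against 4.17, 4.18 and 4.14 in MEP (-8.76, SE 0.23, adjusted p = 3.1e-05), a gap of 8.22 log2. The 4 other Lmna probe sets ran from -4.997 to -0.016, so that size holds for the probe set that represents the gene. Kel, the Kell blood group gene, read -3.68, -3.50 and -3.59 in GMP, against 4.10, 4.38 and 4.01 in MEP (-7.76, SE 0.11, adjusted p = 8.9e-06). Tspan8, a tetraspanin gene, read -4.05, -4.02 and -3.44 in GMP, against 4.50, 4.15 and 4.12 in MEP (-8.09), and its 4 other probe sets ran from -2.96 to -0.04. Atp1b2, a beta subunit of the sodium pump, differed by -7.60 (SE 0.17, adjusted p = 2.1e-05), and its second probe set read -4.55. Tgm2, the transglutaminase 2 gene, read -4.52, -4.45 and -4.48 in GMP, against 2.66, 2.42 and 2.28 in MEP (-6.94, SE 0.10). Aqp9, a channel for glycerol and water, read -4.75, -3.91 and -4.27 in GMP, against 3.04, 2.87 and 2.79 in MEP (-7.21). Aldh1a1 and Aldh1a7, close copies that may share probe signal, differed by -7.72 and -7.81.

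Erythroid transcription factors were lower in GMP for 12 of 20 and higher for 1, with a median of -1.38, where 10.2% of all genes were lower. Gata1, the master regulator of red cell and megakaryocyte genes, read -5.87, -4.11 and -3.23 in GMP, against 2.39, 2.50 and 2.51 in MEP (-6.86, SE 0.69, adjusted p = 0.0022). Gfi1b, the erythroid relative of Gfi1, read -5.67, -4.77 and -3.59 in GMP, against 2.15, 2.25 and 2.99 in MEP (-7.14, SE 0.59, adjusted p = 0.0011). Zfpm1, of the GATA1 partner FOG1, read -4.52, -4.27 and -2.67 in GMP, against 1.44, 1.67 and 2.14 in MEP (-5.57), and Tal1, of the same complexes, read -1.85, -1.61 and -1.77 in GMP, against 1.47, 1.61 and 1.14 in MEP (-3.15). GMP replicate 3 was the GMP array nearest to MEP for 8 of the 12 genes, and MEP replicate 1 the MEP array nearest to GMP for 11. Over all 1859 genes lower in GMP, these arrays were the nearest for 844 and 932. Gata2, which acts earlier, differed by -1.66 (SE 0.13, adjusted p = 0.00098). Bach1, a haem-sensing repressor gene, was the higher member, at 0.83, 0.47 and 0.57 in GMP, against -0.32, -0.70 and -0.82 in MEP (1.24, SE 0.17, adjusted p = 0.0061). Lmo2 (-0.17), Nfe2 (0.26) and E2f2 (0.05) did not pass.

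The erythropoietin receptor gene Epor, through which red cell precursors survive, read -4.10, -4.06 and -2.94 in GMP, against 3.15, 3.36 and 3.50 in MEP (-7.04, SE 0.35, adjusted p = 0.0002). Of 16 genes of its pathway, 5 were lower in GMP (31.2%, against 10.2% of all genes) and 2 higher (12.5%, against 10.8%). The signal transducers Stat5a and Stat5b differed by -1.72 (SE 0.13, adjusted p = 0.00087) and -1.45 (SE 0.28, adjusted p = 0.02), and the adaptor gene Gab1 by -2.30 (SE 0.56, adjusted p = 0.045). The Gab1 call was lost without GMP replicate 1 or any MEP array. Gab2, its relative, was higher at 0.86, 0.51 and 1.21 in GMP, against -0.99, -0.60 and -0.73 in MEP (1.63, SE 0.21, adjusted p = 0.005), as was Sh2b3, of the inhibitory adaptor LNK, at 1.42 (SE 0.24, adjusted p = 0.013). The 2 other Gab2 probe sets read -0.03 and 0.33, and that of Sh2b3 -0.03, and none of them passed. The 2 other Gab1 probe sets read -1.56 and -0.07 and did not pass either. The lower count became 3 without GMP replicate 1, GMP replicate 2 or MEP replicate 1 and 2 without MEP replicate 2. It was also 3 with arrays centred on their median or quantile normalized.

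Blood group antigens and other proteins of the red cell membrane were lower in GMP for 14 of 17 genes, with a median of -3.78. Cldn13, a claudin gene of mouse erythroid cells, read -6.67, -4.78 and -3.10 in GMP, against 3.54, 3.52 and 3.68 in MEP (-8.43, SE 0.92, adjusted p = 0.0029). Rhag, of the Rh-associated ammonium channel, read -5.06, -3.55 and -3.06 in GMP, against 3.91, 4.04 and 3.42 in MEP (-7.68, SE 0.56, adjusted p = 0.00071), and Tspo2, a cholesterol-handling relative of the translocator protein, read -5.01, -3.89 and -3.51 in GMP, against 3.70, 3.51 and 4.33 in MEP (-7.99, SE 0.46, adjusted p = 0.00031). Aqp1, the water channel that carries the Colton antigen, differed by -7.44 and Ermap, which carries the Scianna antigen, by -7.25. As with Klf1 and Rhd, GMP replicate 1 was the lowest GMP array for Cldn13, Rhag, Tspo2, Aqp1 and Ermap. Slc4a1, of the anion exchanger band 3 found in mature red cells, stayed at -0.46 and did not pass (adjusted p = 0.23), nor did Bcam. Slc2a1, the glucose transporter GLUT1, went the other way at 1.66, 2.27 and 1.64 in GMP, against -3.17, -3.37 and -3.48 in MEP (5.20, SE 0.20, adjusted p = 9.8e-05), and its 2 other probe sets read 4.36 and 4.43.

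Promoter stretches of the MEP genes are shown for the GATA motif, searched as AGATAA or TGATAA on both strands. It occurs within 250 bases before the start in 6 of the 14 blood group and other red cell membrane genes with a RefSeq promoter (42.9%) and in 5 of 17 erythroid transcription factor genes (29.4%), against 11.7% of the promoters of all measured genes and 17% of all promoters. It was found in 20.4% of the promoters of genes lower in GMP by at least 3 log2 and in 13% of those higher by at least 3 log2. Among the widest-gap genes it was found in 1 of 12 promoters of those lower in GMP (8.33%) and in 0 of 11 of those higher, while TTGCNNAA was found in 33.3% of those 12 promoters. Both other motifs searched, TTGCNNAA and CCNCACCC, were found in 5.88% and 29.4% of the erythroid transcription factor promoters, against 8.07% and 18% of the promoters of all measured genes. In the myeloid transcription factor promoters AGGAAGT was found in 1 of 10 (10%). Capitals mark the motif, with TTATCT and TTATCA as its reverse. Coordinates in GRCm38.p6 are chr4:134864476-134864515 for Rhd, chr17:40811101-40811140 for Rhag, chr6:41704326-41704361 (minus strand) for Kel, chr4:119190040-119190079 (minus strand) for Ermap, chr9:21029372-21029411 for Icam4, chr6:136857682-136857721 (minus strand) for Art4, chr8:84901885-84901924 for Klf1, chr2:28622080-28622119 (minus strand) for Gfi1b, chr4:115056204-115056243 for Tal1, chr8:122699205-122699244 (minus strand) for Cbfa2t3, chr10:81136215-81136254 for Zbtb7a and chr9:21963608-21963647 (minus strand) for Epor.
Rhd: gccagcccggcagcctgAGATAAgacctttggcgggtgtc
Rhag: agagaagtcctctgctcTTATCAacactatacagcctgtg
Kel: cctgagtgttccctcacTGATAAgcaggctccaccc
Ermap: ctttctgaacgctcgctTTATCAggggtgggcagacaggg
Icam4: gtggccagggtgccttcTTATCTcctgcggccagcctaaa
Art4: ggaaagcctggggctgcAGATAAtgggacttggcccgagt
Klf1: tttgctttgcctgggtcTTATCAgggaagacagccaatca
Gfi1b: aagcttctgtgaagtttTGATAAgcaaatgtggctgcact
Tal1: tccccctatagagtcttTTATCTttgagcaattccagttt
Cbfa2t3: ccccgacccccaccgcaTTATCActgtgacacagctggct
Zbtb7a: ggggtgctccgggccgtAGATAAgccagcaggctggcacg
Epor: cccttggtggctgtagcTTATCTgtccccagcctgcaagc
The first 6 belong to blood group genes and the next 5 to transcription factors, and Epor is given beside them for its receptor. Their GMP minus MEP differences ran from -8.13 for Rhd to -0.98 for Zbtb7a, which did not pass. Cbfa2t3, of a corepressor in the TAL1 complex, differed by -1.13 (SE 0.18, adjusted p = 0.012). Icam4, the Landsteiner-Wiener antigen gene, differed by -3.78, and Art4 carries the Dombrock antigen.

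The list for the spectrin and ankyrin skeleton beneath the red cell membrane was lower in GMP for 5 of 9 genes, with a median of -1.95 and none higher. Among the 5 was Tspan33, a tetraspanin gene with a role in mouse erythropoiesis and not itself a skeleton component. It read -4.84, -3.70 and -3.55 in GMP, against 2.82, 2.95 and 2.57 in MEP (-6.81, SE 0.38, adjusted p = 0.00028), and Ank1, of ankyrin, read -3.29, -2.69 and -2.45 in GMP, against 2.98, 2.94 and 2.99 in MEP (-5.78, SE 0.22, adjusted p = 9.6e-05). Epb42, the band 4.2 gene, read -1.16, -1.07 and -1.16 in GMP, against 3.24, 3.0 and 1.95 in MEP (-3.86), with its second probe set at -0.11, and Sptb, of beta spectrin, -0.67, -0.44 and -0.50 in GMP, against 2.01, 2.13 and 1.56 in MEP (-2.44). Add1, of alpha adducin, differed by -1.95 (SE 0.36, adjusted p = 0.019). Dmtn (-1.18, adjusted p = 0.063), Tmod1, Mpp1 and Add3 did not pass, and Dmtn passed without MEP replicate 1.

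Haem synthesis enzymes were lower in GMP for 8 of 10, with a median of -2.28. Cpox, of coproporphyrinogen oxidase, read -1.47, -1.72 and -1.94 in GMP, against 2.28, 2.36 and 2.11 in MEP (-3.96, SE 0.14, adjusted p = 7.7e-05). Slc25a38, the mitochondrial glycine carrier, differed by -3.16 (SE 0.17, adjusted p = 0.00026), Alad, the next enzyme of the pathway, by -2.99 and Fech, which inserts the iron, by -2.54. The first step has 2 enzyme genes. Alas1, the housekeeping form, was higher at 3.20, 2.96 and 3.30 in GMP, against -1.30, -1.24 and -1.0 in MEP (4.33, SE 0.12, adjusted p = 4.1e-05), with its second probe set at 3.65. Alas2, the erythroid form, was flat on all 12 arrays, with a range of 0.059 log2. The 6 measured globin genes gave no call in either direction and differences between -0.45 for Hbb-b2 and 0.01 for Hba-a2, of which 4 had a range under 0.5 log2.

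Iron handling genes were lower in GMP for 7 of 13 and higher for 1. Slc40a1, of the iron exporter ferroportin, read -1.87, -1.56 and -2.71 in GMP, against 2.04, 2.02 and 1.73 in MEP (-3.97, SE 0.32, adjusted p = 0.00099), and Tfr2, of transferrin receptor 2, read -2.73, -2.39 and -1.30 in GMP, against 1.25, 1.47 and 1.81 in MEP (-3.65). Steap3, an iron reductase gene, differed by -3.55 (SE 0.14, adjusted p = 9.8e-05). Tfrc, the main transferrin receptor gene, read -0.15, 0.81 and -0.47 in GMP, against 1.44, 2.0 and 0.31 in MEP and did not pass (-1.19, adjusted p = 0.23). Hfe, the haemochromatosis gene, was higher at 3.97, 4.04 and 3.93 in GMP, against -2.19, -2.35 and -2.16 in MEP (6.21, SE 0.07, adjusted p = 7.1e-06), and its second probe set read 0.59. With the replicate block the higher count became 2.

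Megakaryocyte and platelet genes did not share a direction, although MEP also form platelets. Of 23, 3 were lower in GMP (13%, against 10.2% of all genes) and 5 higher (21.7%, against 10.8%), with a median of -0.05. F2r, the thrombin receptor gene, read -5.33, -4.17 and -4.39 in GMP, against 1.45, 0.99 and 0.67 in MEP (-5.67, SE 0.38, adjusted p = 0.0005). Gp5, of the platelet glycoprotein V, read -3.60, -4.17 and -2.09 in GMP, against 1.65, 1.89 and 1.94 in MEP (-5.11, SE 0.56, adjusted p = 0.0029), and Vwf, of von Willebrand factor, -1.05, -1.91 and -0.93 in GMP, against 1.49, 0.72 and 0.67 in MEP (-2.26). Fli1, an ETS factor gene of megakaryocytes and other blood cells, was higher at 1.61, 1.72 and 1.45 in GMP, against -2.63, -2.48 and -2.31 in MEP (4.07, SE 0.11, adjusted p = 3.3e-05). Meis1 (1.69), Plek (1.54), Gng11 (1.53) and Cd9 (1.35) were also higher. Pf4, Gp9 and Gp1bb, which read 0.94, 0.02 and -0.04, 1.24, 0.33 and 0.24 and 1.17, 0.10 and -0.76 on the MEP arrays, were highest in MEP replicate 1 and did not pass (adjusted p = 0.066, 0.16 and 0.28).

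**Figure D3:**
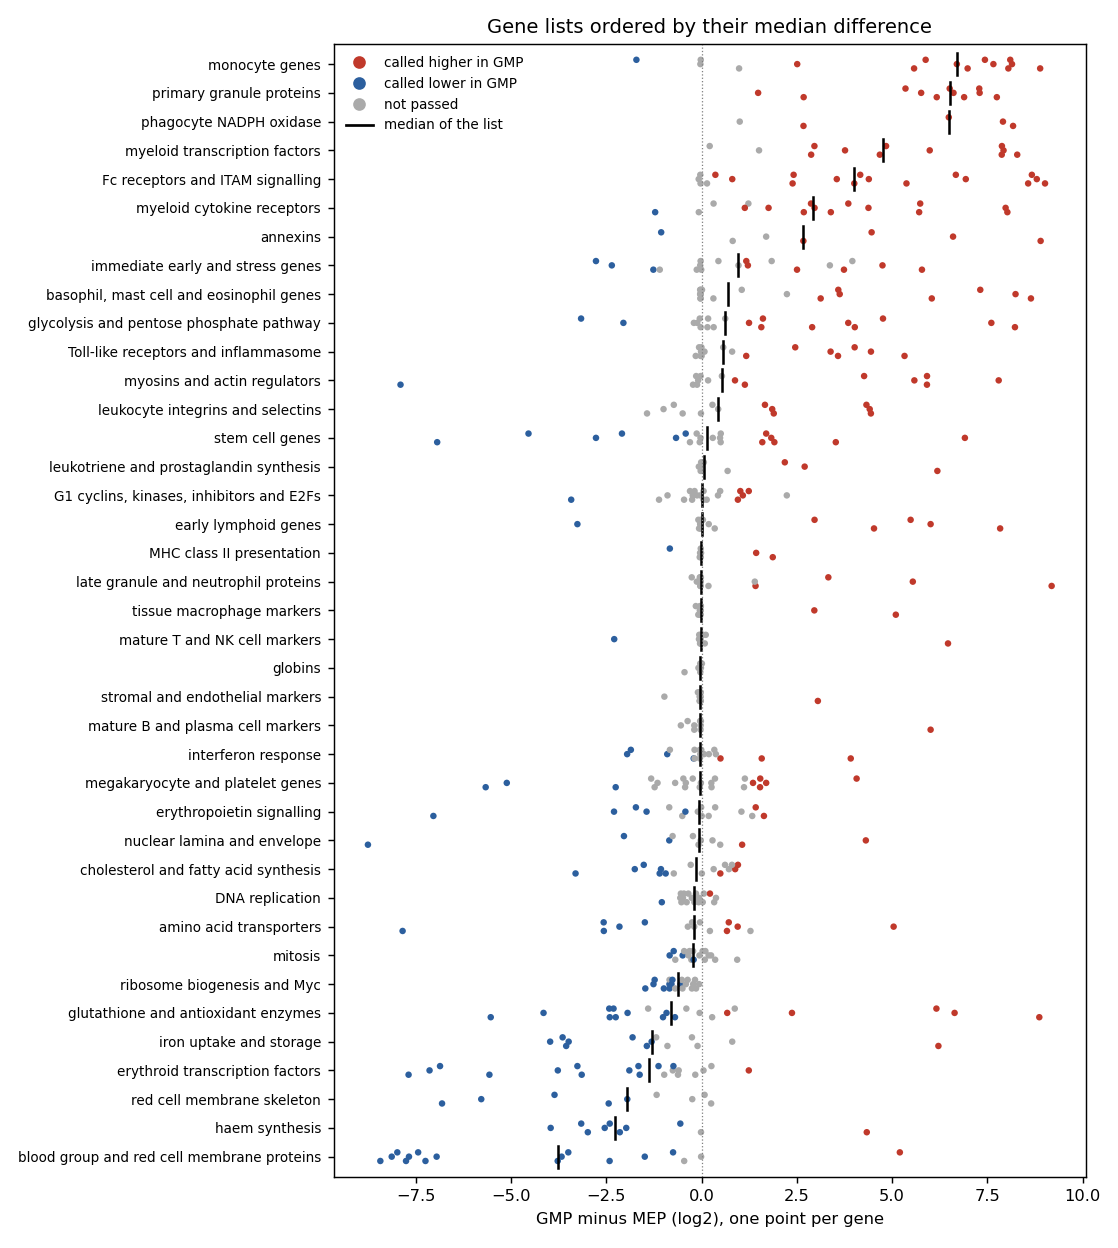
GMP minus MEP difference (log2, x axis) of each measured gene in 39 gene lists (rows), coloured by its limma call, with each list's median as a black bar and lists ordered by it. Monocyte and primary granule genes sit at the top with medians of 6.70 and 6.51, and blood group and other red cell membrane genes at the bottom with a median of -3.78.

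Several structural families held members called in opposite directions. The 10 related pairs described here and drawn by array were chosen after their values were seen, and the choice fixes their directions. In the nuclear envelope, the A-type lamin gene Lmna was lower in GMP (-8.76) and the B-type lamin gene Lmnb2 higher (1.06, SE 0.20, adjusted p = 0.019). Sun2 was higher at 2.76, 2.38 and 2.99 in GMP, against -1.48, -1.65 and -1.67 in MEP (4.31, SE 0.17, adjusted p = 9.8e-05), and its relative Sun1, which also links the envelope to the cytoskeleton, was lower at -0.53, -1.28 and -0.01 in GMP, against 1.45, 1.25 and 1.59 in MEP (-2.04, SE 0.34, adjusted p = 0.013). A second Sun2 probe set read 0.70 and a second Lmnb2 probe set 0.51, and neither passed. Of the other Lmna probe sets, those at -0.96, -0.19 and -0.02 did not pass. In all, 2 of 11 lamina genes were higher in GMP (18.2%, against 10.8% of all genes) and 3 lower (27.3%, against 10.2%). With the replicate block 4 were higher, Lmnb1 and Lbr among them. The higher count was 1 without any GMP array or without MEP replicate 2, and the lower count 1 without MEP replicate 1. The Lmnb2 call was lost without any GMP array or MEP replicate 2, and that of Sun1 without MEP replicate 1. With the mean of its probe sets Lmnb2 did not pass either (adjusted p = 0.0528).

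Myosins and actin regulators were higher in GMP for 7 of 15 and lower for 1. Myh10, the heavy chain of non-muscle myosin IIB, read -4.60, -3.62 and -3.63 in GMP, against 4.18, 3.90 and 3.77 in MEP (-7.90, SE 0.31, adjusted p = 9.8e-05), and Myh9, that of myosin IIA, read 0.37, 0.20 and 0.89 in GMP, against -0.81, -0.79 and -0.35 in MEP (1.13, SE 0.23, adjusted p = 0.025). The class I myosin genes of leukocytes Myo1f and Myo1g differed by 7.80 and 5.91, and the actin bundler gene Lcp1 by 5.91. A second Myh10 probe set read -0.05. Amino acid transporters gave 4 of 15 higher and 5 lower in GMP. Slc38a5, a glutamine carrier, read -5.18, -4.11 and -3.37 in GMP, against 3.56, 3.70 and 3.61 in MEP (-7.85, SE 0.47, adjusted p = 0.00036). Slc7a6 and Slc7a7 encode the y+LAT2 and y+LAT1 carriers of cationic amino acids, and differed by 5.04 (SE 0.17, adjusted p = 7.2e-05) and -2.57 (SE 0.39, adjusted p = 0.009). A second Slc7a7 probe set read -0.19 and did not pass.

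**Figure D4:**
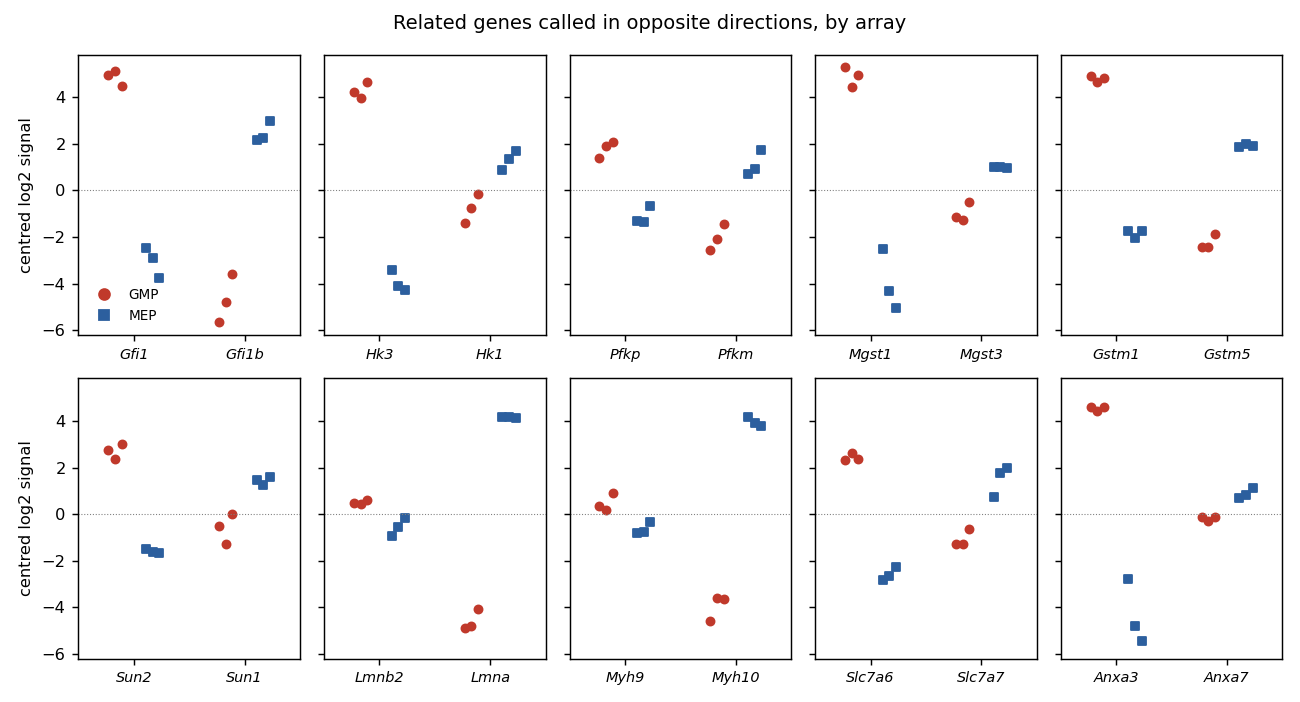
Centred log2 signal (y axis) of 10 pairs of related genes on each GMP array (red circles) and MEP array (blue squares), chosen after the values were seen. In each panel the left gene is higher in GMP and the right gene lower in GMP, as for Gfi1 (7.92 log2) and Gfi1b (-7.14 log2).

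Glutathione and antioxidant enzymes were lower in GMP for 10 of 20 and higher for 5. The membrane-bound transferase genes Mgst1 and Mgst2 were higher, with Mgst1 at 5.29, 4.45 and 4.97 in GMP, against -2.50, -4.34 and -5.04 in MEP (8.86, SE 0.71, adjusted p = 0.00096), and Mgst3 was lower at -1.13, -1.26 and -0.48 in GMP, against 0.99, 1.01 and 0.96 in MEP (-1.94, SE 0.22, adjusted p = 0.0031). A second Mgst1 probe set read -0.03. Among soluble transferases, Gstm1 differed by 6.64 (SE 0.12, adjusted p = 1.2e-05) and Gstm5 by -4.15 (SE 0.17, adjusted p = 0.00012). The Gstm genes are close copies whose probes may share signal. Nqo1, a quinone reductase gene, read -2.79, -2.63 and -2.77 in GMP, against 2.63, 2.72 and 3.08 in MEP (-5.53, SE 0.13, adjusted p = 2.4e-05), and Prdx2, an abundant red cell peroxidase gene, read -1.75, -1.63 and -1.60 in GMP, against 0.69, 0.78 and 0.82 in MEP (-2.42). Gsr, which regenerates glutathione, was higher at 2.34, 2.33 and 2.19 in GMP, against -0.18, -0.12 and 0.04 in MEP (2.37).

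Glycolysis and pentose phosphate genes were higher in GMP for 9 of 19 and lower for 2, with a median of 0.62. Hexokinases, which trap glucose in the cell, were split: Hk3 read 4.23, 3.97 and 4.64 in GMP, against -3.42, -4.11 and -4.29 in MEP (8.22, SE 0.29, adjusted p = 7.7e-05), Hk2 differed by 3.85 and Hk1 read -1.40, -0.74 and -0.16 in GMP, against 0.86, 1.34 and 1.67 in MEP (-2.05, SE 0.38, adjusted p = 0.019). Phosphofructokinase was split too, with Pfkp at 2.90 (SE 0.27, adjusted p = 0.0017) and Pfkm at -3.16 (SE 0.41, adjusted p = 0.005). Pkm, of pyruvate kinase, read 2.39, 2.30 and 3.02 in GMP, against -4.71, -5.42 and -4.96 in MEP (7.60, SE 0.28, adjusted p = 7.9e-05), and Pgam1 differed by 4.02. The Hk1 call, and with it the lower count of 2, was lost without GMP replicate 2, MEP replicate 2 or MEP replicate 3, which left 1. Lipid synthesis genes were higher in GMP for 3 of 16 and lower for 6. Scd1, a desaturase gene, read -0.10, -0.06 and -0.11 in GMP, against 3.38, 3.61 and 2.66 in MEP (-3.31, SE 0.26, adjusted p = 0.0009), with its second probe set at -1.07, and Lss, a sterol cyclase gene, differed by -1.75. The higher count, which holds Hmgcs1, Acaca and Elovl6, was 5 with the replicate block and 0 or 1 without any single array other than GMP replicate 3.

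Of the cell cycle lists, 22.2% of mitosis genes, 10.5% of DNA replication genes and 25% of G1 regulators were called in either direction, against 21% of all genes. Of 18 mitosis genes 4 were lower in GMP and none higher, from -0.84 for cyclin A2 (Ccna2) to -0.21 for survivin (Birc5), and 2 were lower without GMP replicate 2 or MEP replicate 2. The Ccna2 call was lost without GMP replicate 2 or any MEP array. Kif23, a kinesin gene of cytokinesis, depended on the probe set: the one that represents it read 0.13, 0.77 and 0.13 in GMP, against 0.01, -0.40 and -1.38 in MEP and did not pass (0.93, adjusted p = 0.21), another was higher in GMP by 1.23 (adjusted p = 0.00012 over probe sets), and the third differed by -0.05. Kif23 passed as higher with the probe set chosen over the CMP arrays (adjusted p = 8.48e-05), with the mean of its probe sets (0.0204) and with array weights (0.038). Plk1, a mitotic kinase gene, did not pass (-0.69, adjusted p = 0.06) but did with the block (0.017). Of 19 DNA replication genes, Cdc6 was lower (-1.04, SE 0.13, adjusted p = 0.0041) and Gins1 higher (0.22, SE 0.04, adjusted p = 0.021). With the block 5 were lower, Rfc4 and Prim1 among them (adjusted p = 0.0251 and 0.0148), and none was higher. Gins1 was called in neither of the fits without GMP replicate 1 or 3 nor in those without MEP replicate 1 or 2, and the lower count was 2 without replicate 3 of either population. Among 20 G1 regulators, Ccne1, the cyclin E1 gene that drives entry to S phase, stood out at -1.72, -1.26 and -1.62 in GMP, against 1.97, 1.88 and 1.82 in MEP (-3.42, SE 0.13, adjusted p = 9.6e-05). Ccnd1, Ccnd2, Cdk6 and Cdkn2d were higher in GMP by 1.01, 1.24, 1.08 and 0.95. That count of 4 became 2 without GMP replicate 1, GMP replicate 2 or MEP replicate 1, and 1 without GMP replicate 3 or MEP replicate 2. Cdkn1a, of the inhibitor p21, read 1.80, 0.52 and 2.76 in GMP, against -0.54, -0.56 and -0.52 in MEP and did not pass (2.23, adjusted p = 0.054). Its other probe set did (2.44, adjusted p = 0.00075 over probe sets), as did the gene without GMP replicate 2 (0.00934), with the mean of its probe sets (0.00608), in the 12-array fit (0.00471), with array weights (0.00113) and with the range filter (0.00883). The count lower in GMP became 3 with the block, and 2 without GMP replicate 1, where Ccnd3 passed.

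Ribosome biogenesis and Myc genes were lower in GMP for 9 of 20, none was higher and the median was -0.62. Ddx21, a nucleolar helicase gene, read -0.79, -0.22 and -0.58 in GMP, against 0.68, 0.66 and 0.77 in MEP (-1.23, SE 0.15, adjusted p = 0.0044), and Nop56, of the box C/D ribonucleoproteins, read -0.36, -0.13 and -0.41 in GMP, against 0.41, 0.44 and 0.54 in MEP (-0.77, SE 0.09, adjusted p = 0.0033). Odc1, of polyamine synthesis, read -1.19, -0.24 and -0.49 in GMP, against 0.40, 0.60 and 0.87 in MEP (-1.26, SE 0.28, adjusted p = 0.034), a call lost without GMP replicate 3 or any MEP array. Myc itself differed by -0.37 and did not pass. The count of 9 became 4 without MEP replicate 1 or MEP replicate 2 and 3 without MEP replicate 3, and it was 4 with arrays centred on their median or quantile normalized.

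Stem cell genes were split, with 6 of 20 higher in GMP and 6 lower. Prom1, the CD133 gene, read 6.59, 7.78 and 6.27 in GMP, against 0.16, -0.11 and -0.13 in MEP (6.91, SE 0.42, adjusted p = 0.00036), and Erg, an ETS factor gene, read 1.55, 1.74 and 1.60 in GMP, against -1.74, -1.95 and -1.97 in MEP (3.52, SE 0.09, adjusted p = 2.5e-05). Mllt3, a chromatin reader gene, read -2.14, -1.91 and -2.45 in GMP, against 2.62, 2.50 and 2.02 in MEP (-4.54, SE 0.22, adjusted p = 0.00018), and Slamf1, of the surface marker CD150, differed by -2.09. The lower count became 3 without GMP replicate 1 or 2 or without MEP replicate 2 or 3. Early lymphoid genes were higher in GMP for 5 of 16 and lower for 1. Ighm, of the immunoglobulin mu chain, read 3.79, 3.10 and 3.85 in GMP, against -3.90, -3.10 and -5.76 in MEP (7.83, SE 0.73, adjusted p = 0.0017), with its 10 other probe sets between -0.25 and 6.04. Satb1 differed by 5.48 and Notch1 by 4.52. The recombination genes Rag1 (-0.04) and Rag2 (0.03) and the B lineage factor genes Pax5 (-0.02) and Ebf1 (-0.09) did not pass.

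Immediate early and stress genes, which respond within minutes to handling and signals, were higher in GMP for 6 of 19 and lower for 3. Fos read 5.35, 3.28 and 2.05 in GMP, against -0.84, -1.34 and -1.37 in MEP (4.75, SE 0.87, adjusted p = 0.018), and the heat shock gene Hspa1a read 5.27, 3.02 and 0.73 in GMP, against -0.11, -0.48 and -0.49 in MEP without passing (adjusted p = 0.12). GMP replicate 1 was the highest GMP array for Fos, Hspa1a, Hspa1b and Jun. The Fos call was lost without GMP replicate 2 or any MEP array, and Hspa1b (3.96, adjusted p = 0.12) passed with the block (0.0126) and without GMP replicate 3. Gadd45b was steadier at 4.02, 4.05 and 3.52 in GMP, against -2.0, -2.02 and -1.72 in MEP (5.78, SE 0.18, adjusted p = 5.1e-05). Egr1 was lower at -1.02, -0.99 and -1.03 in GMP, against 0.33, 2.38 and 2.57 in MEP (-2.77, SE 0.64, adjusted p = 0.037), a call lost without any array but MEP replicate 1, and it stands in the stem cell list too. The lower count was 1 without GMP replicate 1 or 2 and 0 without MEP replicate 2 or 3, and Jund did not pass with the block (adjusted p = 0.051). Interferon response genes gave 3 of 18 higher in GMP (16.7%, against 10.8% of all genes) and 4 lower (22.2%, against 10.2%). Gbp3, a guanylate-binding protein gene, read 2.19, 1.75 and 1.52 in GMP, against -1.52, -2.28 and -2.48 in MEP (3.91, SE 0.32, adjusted p = 0.00099) and Irf7 -0.93, -1.07 and -0.81 in GMP, against 0.42, 0.98 and 1.35 in MEP (-1.86, SE 0.25, adjusted p = 0.0061). The lower count became 1 without GMP replicate 1, MEP replicate 2 or MEP replicate 3 and 2 without MEP replicate 1.

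Markers of other cell types that a marrow sort could hold were mostly flat. Calls in either direction covered 11.1% of the B and plasma, 15.4% of the T and NK and 16.7% of the tissue macrophage genes. The stromal and endothelial share was 7.69%, and that of all genes 21%. Of 9 mature B and plasma cell genes Cd79b was higher, at 2.07, 2.01 and 2.62 in GMP, against -3.89, -4.37 and -3.06 in MEP (6.01, SE 0.38, adjusted p = 0.00044). Ms4a1, Cd22 and Cr2 had ranges under 0.5 log2, and the summed centred level of the list ran from 1.51 to 2.07 in GMP and from -3.45 to -2.37 in MEP. Of 13 T and NK cell genes, Nkg7, a granule membrane gene, was higher at 3.32, 3.23 and 3.54 in GMP, against -2.85, -3.84 and -2.61 in MEP (6.47, SE 0.35, adjusted p = 0.00025) and Lat, an adaptor of T cells and platelets, lower at -2.52, -2.10 and -2.43 in GMP, against 0.04, -0.17 and -0.04 in MEP (-2.29, SE 0.13, adjusted p = 0.00029). Cd3d, Cd3e, Cd3g, Cd4 and Cd8a were flat, and the sum ran from 0.784 to 1.33 in GMP and from -3.80 to -2.29 in MEP. Of 12 tissue macrophage genes, Vcam1 was higher at 5.68, 5.85 and 3.74 in GMP, against 0.03, -0.02 and -0.04 in MEP (5.10, SE 0.61, adjusted p = 0.0039) and Adgre1, of F4/80, at 2.55, 2.46 and 2.56 in GMP, against -0.49, -0.70 and -0.11 in MEP (2.96, SE 0.16, adjusted p = 0.00026). C1qa, C1qc, Cd5l, Marco, Mrc1, Siglec1, Spic and Timd4 were flat, and the sum ran from 6.03 to 8.34 in GMP and from -0.58 to 0.154 in MEP. Of 13 stromal and endothelial genes Pdgfrb was higher at 1.06, 0.72 and 1.38 in GMP, against -1.94, -2.31 and -1.74 in MEP (3.05, SE 0.23, adjusted p = 0.00074), with 10 genes flat and sums of 0.861 to 1.01 in GMP and -2.02 to 1.10 in MEP. The part of such cells in the differences above was not tested.

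The 2 CMP fractions form the comparison most like this one, since they too set a CD27+ sort against a CD27- sort, on arrays shared with neither GMP nor MEP. The difference between GMP and MEP was tested against the difference between CD27+ and CD27- CMP, over all 12 arrays. It was the larger, as signed values, for 185 genes (1.02%) and the smaller for 192 (1.06%), or 2.07% of genes. Without MEP replicate 2 these counts became 116 and 112. Of the 377 genes, 280 were also called between GMP and MEP, and 84 had differences of opposite sign in the 2 pairs of sorts. Of the 15 genes of widest gap higher in GMP 7 passed this test, and of the 15 lower in GMP 0 passed. Both sets were chosen on GMP and MEP arrays that also enter this test, so these counts are not independent of that choice. For CD16, the Fcgr3 product, GMP and MEP were gated apart while both CMP fractions were gated negative. Fcgr3 was among the 7, with 8.79 between GMP and MEP and 4.71 between the CMP fractions (4.08, SE 0.85, adjusted p = 0.049), as were Trem3 (3.05, SE 0.42, adjusted p = 0.0073), Hdc (3.53, SE 0.45, adjusted p = 0.005) and Gpc1 (2.51, SE 0.25, adjusted p = 0.0013). Kel, with -7.76 between GMP and MEP and -7.47 between the CMP fractions, did not pass (-0.29, SE 0.36, adjusted p = 0.99). For Cebpa it was 0.75 (SE 0.69, adjusted p = 0.99) and for Klf1 -0.46 (SE 1.29, adjusted p = 0.99).

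The 8 named genes with a larger difference between GMP and MEP were high on GMP arrays and stayed under 0.4 log2 on the other arrays, apart from replicate 1 of CD27+ CMP. Mgam, of maltase-glucoamylase, read 4.66, 4.61 and 4.48 in GMP, against 0.06, -0.01 and -0.03 in MEP, and -0.08, -0.11 and -0.11 in CD27+ CMP, against 0.01, 0.01 and -0.20 in CD27- CMP (difference of differences 4.61, SE 0.09, adjusted p = 4.7e-08). Chst13, a chondroitin sulphotransferase gene, read 5.87, 6.28 and 6.34 in GMP, against -0.12, 0.00 and -0.30 in MEP, and 1.01, -0.03 and 0.02 in CD27+ CMP, against 0.00, -0.01 and -0.32 in CD27- CMP (5.86, SE 0.37, adjusted p = 7.5e-05). Clec4a2, a C-type lectin gene of myeloid cells, read 5.77, 5.05 and 4.20 in GMP, against 0.03, 0.01 and -0.02 in MEP, and 0.55, -0.01 and -0.03 in CD27+ CMP, against -0.01, -0.01 and -0.04 in CD27- CMP (4.82, SE 0.47, adjusted p = 0.001). Hsd11b1, whose enzyme regenerates active glucocorticoid, read 7.64, 7.08 and 6.77 in GMP, against 0.04, 0.00 and -0.02 in MEP, and 3.26, -0.02 and -0.03 in CD27+ CMP, against 0.00, -0.01 and -0.07 in CD27- CMP (6.06, SE 1.06, adjusted p = 0.022). Replicate 1 of CD27+ CMP also read 1.97 for Sgms2, a sphingomyelin synthase gene, and 2.93 for Prom1. Their differences of differences were 6.06 (SE 0.78, adjusted p = 0.0052) and 5.82 (SE 1.03, adjusted p = 0.022). Prg2 and Vcam1 were the others of this kind, at 6.08 (SE 1.01, adjusted p = 0.018) and 4.88 (SE 0.69, adjusted p = 0.0078).

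Named genes whose GMP minus MEP difference was the smaller as a signed value were led by Dntt, which encodes the terminal transferase of early lymphoid cells. It read -0.05, -0.08 and -0.10 in GMP, against 0.00, 0.01 and -0.04 in MEP, and 7.96, 8.84 and 8.55 in CD27+ CMP, against 0.05, 0.00 and -0.06 in CD27- CMP (-8.52, SE 0.25, adjusted p = 3.4e-07). Wfdc17, of a small secreted protein, read -0.06, 0.75 and 0.28 in GMP, against 0.01, -0.08 and -0.10 in MEP, and 7.0, 7.78 and 6.94 in CD27+ CMP, against -0.01, -0.06 and -0.10 in CD27- CMP (-6.92, SE 0.34, adjusted p = 1.3e-05). Flt3, a receptor kinase gene of early multipotent progenitors, read 0.92, 1.62 and 2.65 in GMP, against -1.10, -1.25 and -1.36 in MEP, and 7.09, 7.11 and 7.22 in CD27+ CMP, against -1.24, -1.25 and -0.92 in CD27- CMP (-5.31, SE 0.49, adjusted p = 0.00082). GMP thus held a called but smaller Flt3 difference of 2.96 over MEP (SE 0.45, adjusted p = 0.0095). For Fads3 and Gimap6 the signed value was the smaller too, but the difference was the larger in size between GMP and MEP. Fads3, a desaturase family gene, read -4.65, -4.21 and -3.60 in GMP, against 1.57, 1.66 and 1.25 in MEP, and -1.83, 0.11 and -0.93 in CD27+ CMP, against 1.26, 1.01 and -0.11 in CD27- CMP (-4.05, SE 0.73, adjusted p = 0.025). Gimap6, of a lymphocyte GTPase family, had differences of opposite sign, with -2.26 between GMP and MEP and 1.48 between the CMP fractions (-3.74, SE 0.22, adjusted p = 4.8e-05). The calls of Hsd11b1, Prom1 and Fads3 were each lost in at least 4 of the 6 fits that left out a GMP or MEP array.

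**Figure D5:**
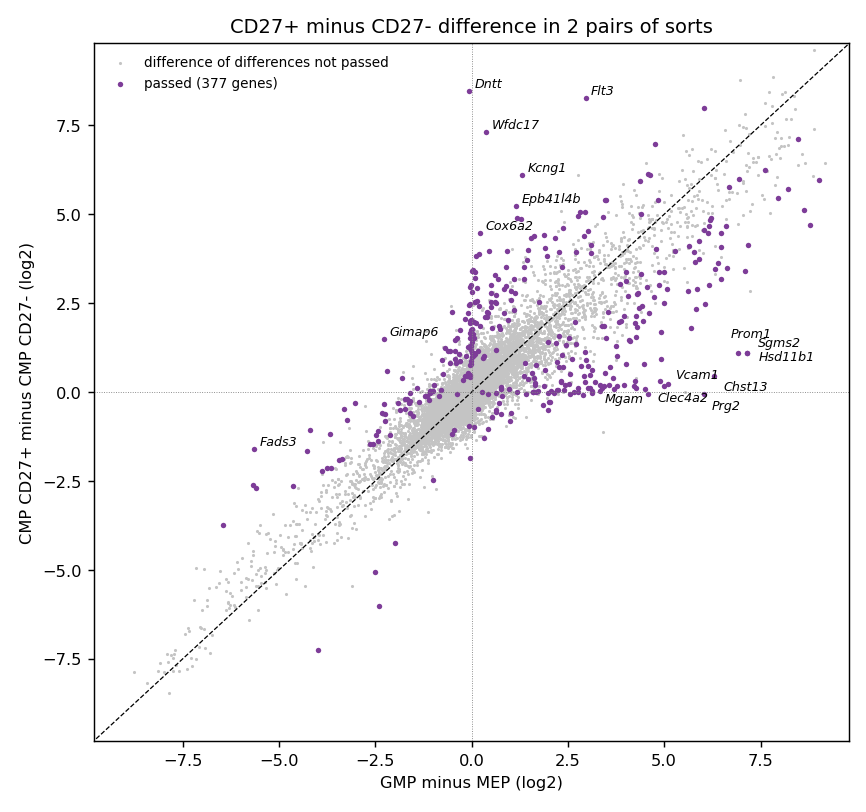
GMP minus MEP difference (log2, x axis) against CD27+ minus CD27- CMP difference (log2, y axis) for 18193 genes, with the 377 genes whose 2 differences departed from each other in purple and equality as a dashed line. Dntt (-0.07 and 8.45) lies far above the line and Prg2 (6.04 and -0.04) far below it.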

How the data were processed

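RNA of sorted GMP, MEP and both CMP fractions was measured on 12 Affymetrix mouse genome arrays, 3 per population, grouped by their titles. The authors deposited log2 values per probe set, which come from GCRMA according to the submitters' processing notes. The sources used here give neither GCRMA's version nor the log base. Base 2 was read from the size of the values, and the median of each probe set over the 12 arrays is 0, so absolute levels, signal over background and depth cannot be recovered. The number of arrays limits the precision, and a range filter stands in for a filter on dim probes.

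From these values, limma 3.58.1 in R 4.3.3 was fitted anew to the 3 GMP and 3 MEP arrays over all 45037 probe sets, with two-sided tests and Benjamini-Hochberg adjustment at 0.05. Symbols came from GEO's platform annotation: 34945 probe sets have 1 symbol, 932 several and 9160 none. A gene was represented by its single-symbol probe set of largest SD over the 12 arrays, for 18193 genes (9010 have more than 1 such probe set). The difference of differences was fitted over all 12 arrays. The script was tested on simulated data. Of the single-symbol probe sets, 34741 had a symbol found in RefSeq, and promoter sequences are RefSeq's for GRCm38.p6.

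Named were the 15 genes of widest gap without overlap in each direction, the markers, the 4 members of largest difference, dissenting members and (in lists of up to 12) members not passed of 40 lists, and the 8 genes of largest difference of differences in each direction. Gene models and clones without a gene name (symbols such as Rik, Gm numbers and LOC) were left out of the rankings by gap and by difference of differences. Further list members and the related pairs were chosen after their values were seen. Members and lists were chosen with earlier results of these data known. The labels number the replicates but do not say that same-numbered GMP and MEP samples belong together. Deviations of same-numbered arrays from their group means correlated at 0.43, 0.27 and 0.58 over the 15263 probe sets whose range reached 1 log2. Arrays with different numbers gave -0.49 to 0.18. The main counts and p-values come from the fit without the replicate block. The alternatives were the replicate block, a 12-array fit, array weights, median centring, quantile normalization, the range filter, robust empirical Bayes, a size of at least 1 log2, other rules for the probe set of a gene, and leaving out each GMP or MEP array.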

Additional observations from a re-analysis of the deposited data

Results flagged for a closer look

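For 16 genes the GMP minus MEP difference departed from the CD27+ minus CD27- CMP difference by the limma test of the difference between the 2 pairs of sorts (adjusted p under 0.05), and they had the largest departures in each direction once gene models and clones without a gene name were left out. Higher in the GMP and MEP pair were Prg2 by 6.08 log2, Sgms2 by 6.06, Hsd11b1 by 6.06, Chst13 by 5.86, Prom1 by 5.82, Vcam1 by 4.88, Clec4a2 by 4.82 and Mgam by 4.61. Lower there were Dntt at -8.52, Wfdc17 at -6.92, Flt3 at -5.31, Kcng1 at -4.79, Cox6a2 at -4.25, Epb41l4b at -4.09, Fads3 at -4.05 and Gimap6 at -3.74. For Kcng1, a potassium channel subunit gene, the difference was 1.30 between GMP and MEP (adjusted p = 0.11) and 6.09 between the CMP fractions. Cox6a2, of a cytochrome oxidase subunit, gave 0.22 and 4.46, and Epb41l4b, of the band 4.1 family, gave 1.15 and 5.24. Other probe sets of some of these genes differed from the one that represents the gene: between GMP and MEP, a second Sgms2 probe set read 2.15, those of Vcam1 0.00 and 0.78, and that of Clec4a2 -0.01.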

How the results depend on the processing

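Among the genes named by rule, no called gene and no called difference of differences changed direction under any alternative run. With the replicate block, lower calls numbered 4787 probe sets and 2941 genes, Jund lost its call, and Anxa4, Cyba, Hspa1b, Lbr, Lmnb1, Pla2g4a, Plk1, Prim1 and Rfc4 gained one. The block changed no other call among the genes named by rule. Among further list members, Gins1 lost its call and some adhesion genes gained a lower call. Leaving out 1 GMP or MEP array gave 2316 to 3051 higher and 1883 to 2673 lower probe sets, 1522 to 1907 higher and 1213 to 1818 lower genes, 144 to 164 higher and 81 to 108 lower list members (against 166 and 113 with all arrays), and 116 to 203 higher and 112 to 212 lower differences of differences. Without MEP replicate 2 alone the counts were the lowest: 1883 lower probe sets, 1213 lower genes and 116 and 112 differences of differences. A size of at least 1 log2 left 1603 lower probe sets and 1073 lower genes. Array weights, whose estimation stopped before convergence with weights of 0.178 to 235.7, gave 7965 higher and 27048 lower probe sets, 3368 higher and 6973 lower genes, 198 lower list members, and 336 and 375 differences of differences, for which the cause was not tested. Centring arrays on their median or quantile normalization each ended the calls of Egr1, Gab1, Gadd45a, H2-Ab1, H2-Ob, Il17ra, Odc1, Polr1b and Rrp9. Quantile normalization ended that of Fads3 in the difference of differences (adjusted p = 0.0632), as did averaging probe sets (0.0568), which also ended that of Cox6a2 (0.0821). Between GMP and MEP, averaging probe sets ended the calls of Acaca, Elovl6, H2-Ab1 and Lmnb2. It gave a call to Cdkn1a, Dmtn, Kif23, Lmnb1, Prim1 and Rfc4. With 3 arrays per population, small differences that missed the threshold are not shown to be absent.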

Other observations

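Genes that share a symbol stem, such as Gstm1 and Gstm5, form 2407 families with at least 2 measured members, of which 1283 held a gene called between GMP and MEP and 308 held members called in both directions. A shared stem is a matter of naming, and some such families are not related in sequence. For 4 genes, Cds2, Mapre1, Rprd1a and Tsc22d1, different probe sets were called in opposite directions between GMP and MEP.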
